A study of Mus musculus with 4 samples.

Results

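The clustered protocadherins are a family of neuronal cell-surface genes that lie side by side on mouse chromosome 18, in an alpha, a beta and a gamma cluster. The members described here are the protein-coding genes on that chromosome whose symbols name a place in those clusters, as listed in the GENCODE vM21 basic annotation of mm10, the mouse assembly also called GRCm38. There were 57 such genes among 21755 protein-coding genes: 12 alpha, 22 beta, 12 gamma A, 6 gamma B and 5 C-type genes. They carry 56 symbols, because 2 gene records are both named Pcdha11; the one whose first exon starts at position 37005203 is Pcdha10 in RefSeq and is called that here. Pcdhgb8 is annotated as a polymorphic pseudogene and was not counted as a member.

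The measurement was chromatin immunoprecipitation sequencing (ChIP-seq) of H3K27ac, the acetylation of lysine 27 of histone H3, which marks active promoters and enhancers. All 4 samples came from left cerebral cortex tissue of adult female B6CASTF1/J mice, aged 2 months, the offspring of C57BL/6J and CAST/EiJ parents, with no treatment named. They form 1 group of 2 pools, pool I and pool J, each of 4 biosamples and each sequenced as 2 technical libraries, so there was no second condition and no test. The peak lists were the replicated list of both pools with 72027 peaks, which carries the main values, a pseudoreplicated list of both pools, and the lists of pool I and pool J alone, with 69834 and 49839 peaks. Read depth is unknown, so the lack of a peak means that none was called and not that the mark was absent. Genes that mark some cortical cell types carried promoter peaks in the replicated list, beside 58.5% of all protein-coding genes. The counts were 6 of 6 for neurons, 2 of 3 for astrocytes (not Gfap), 3 of 3 for microglia and 2 of 2 for endothelium. In pool J the microglia count was 2 of 3. The median percentile of signal among protein-coding genes with a promoter peak was 71.6 for neurons and 45.0 for astrocytes. It was 9.52 for microglia and 7.11 for endothelium, so those peaks were weak. Among the neuron genes Gad1 and Gad2 were weak too, at percentiles 8.76 and 5.21. Snap25, Syt1, Rbfox3 and Slc17a7 stood at 64.5 or higher. The astrocyte median is over Slc1a2, at 82.4, and Aqp4, at 7.52.

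Clustered protocadherins are cadherin-like adhesion proteins that bind the same isoform on a neighbouring cell and take part in the self-recognition of neurites. Each alpha and gamma gene has its own promoter and a large variable first exon, which is spliced to constant exons shared by the whole cluster, whereas the beta genes have no constant exons. A neuron is known to use a small, largely random choice of the alpha, beta, gamma A and gamma B promoters, under the control of CTCF, cohesin and DNA methylation, while the C-type promoters are used by many neurons. In bulk tissue, a mark carried strongly by few cells and a mark carried weakly by many cannot be told apart.

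A promoter peak was one that overlapped the 1000 bp on either side of a first exon start, and a gene took the signal of its highest such peak. The signal of a peak is the number assigned to it by the authors' caller. In the replicated list, 7 of the 57 members (12.3%) had a promoter peak, where 58.5% of all protein-coding genes did. In the pool I list there were 5 marked members (8.77%), beside 58.2% of all protein-coding genes. The pool J list also held 5, beside 55.2%. The same 5 genes, Pcdhac2, Pcdhga12, Pcdhgc3, Pcdhgc4 and Pcdhgc5, were marked in each pool list, beside 54.7% of all protein-coding genes. Pcdha5 and Pcdhga11 were marked in the replicated list alone.

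**Figure D1:**
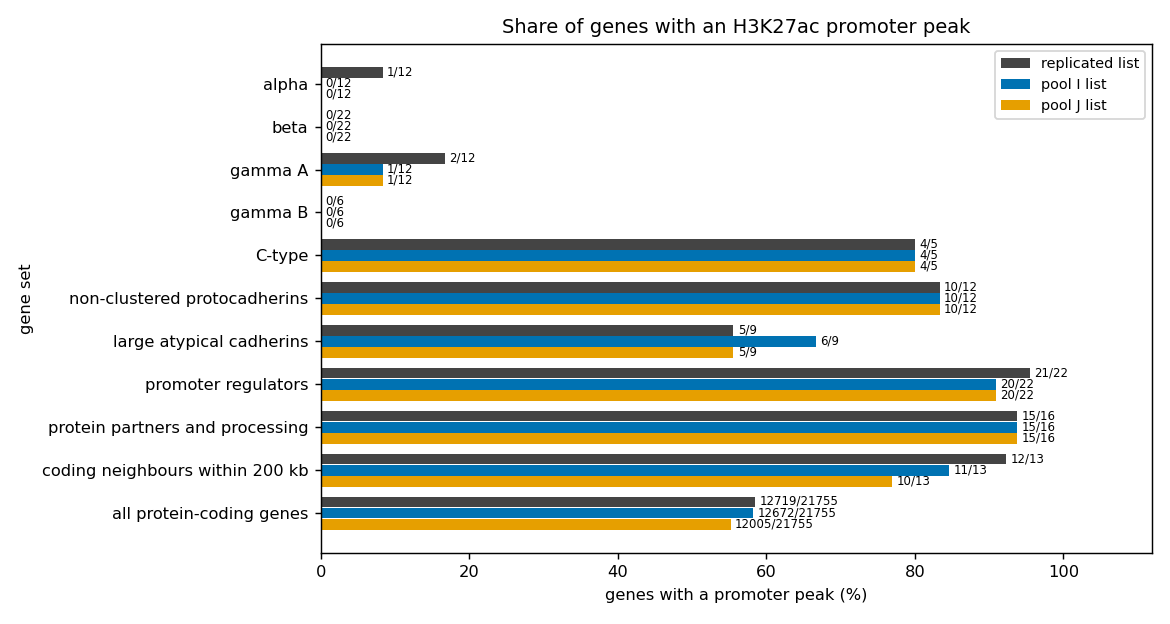
Share of genes with an H3K27ac promoter peak (horizontal axis, %). Gene sets are each protocadherin subfamily, 4 comparison lists, the coding genes that start in the 200 kb on either side and all protein-coding genes. Bars are the replicated, pool I and pool J lists, with counts at the bar ends; 4 of 5 C-type genes were marked in each list and 0 of 22 beta genes.

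Marked members were spread unevenly over the subfamilies. Of the C-type genes 4 of 5 were marked, and of the other 52 members 3 were marked (5.77%) in the replicated list and 1 in each pool list. By subfamily, the replicated list marked 1 of 12 alpha, 0 of 22 beta, 2 of 12 gamma A and 0 of 6 gamma B genes. The members without a promoter peak in the replicated list, 50 in all, were Pcdha1 to Pcdha4, Pcdha6 to Pcdha12, Pcdhac1, Pcdhb1 to Pcdhb22, Pcdhga1 to Pcdhga10 and Pcdhgb1, Pcdhgb2, Pcdhgb4, Pcdhgb5, Pcdhgb6 and Pcdhgb7. None of these 50 gained one in either pool list.

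**Figure D2:**
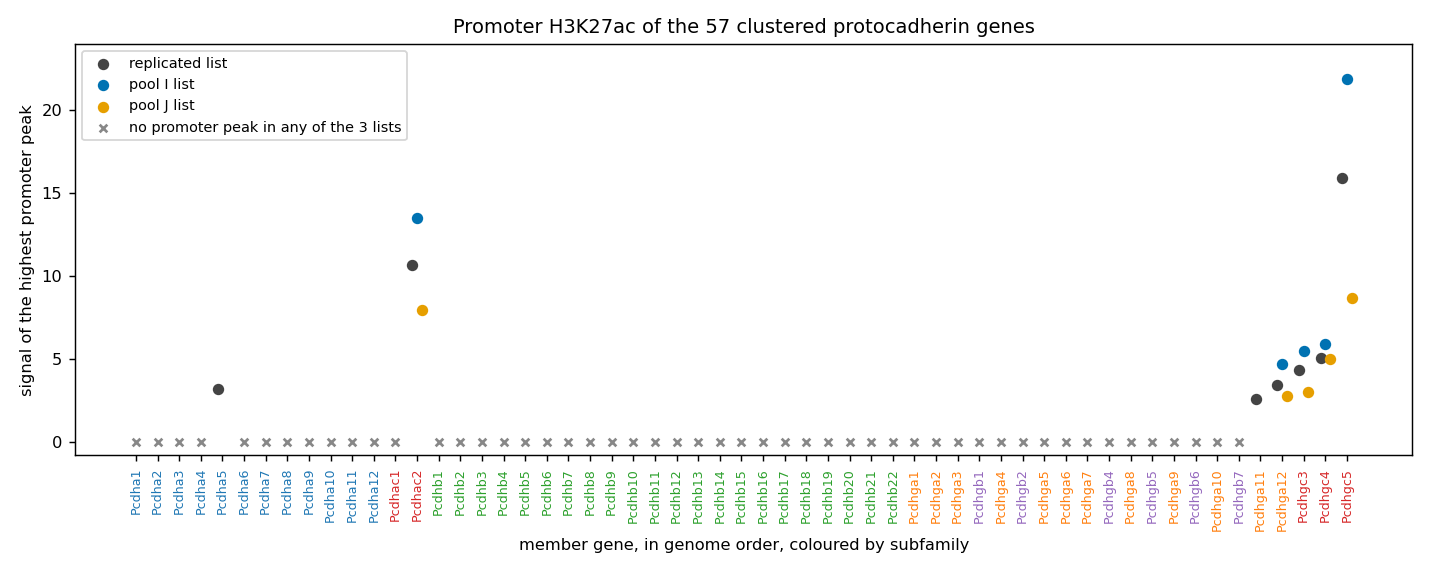
Signal of the highest promoter peak (vertical axis, the peak caller's value) of each of the 57 members in genome order, in the replicated, pool I and pool J lists. Crosses mark members with no promoter peak in any of these lists and are not measured zeros; the marked members sit at the ends of the alpha and gamma clusters, apart from Pcdha5.

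Pcdhgc5, the last variable exon of the gamma cluster, had the highest signal of the members. Its peak at chr18:37819520-37823437 had a signal of 15.9 in the replicated list, and its signal was 21.9 in pool I and 8.70 in pool J. The replicated peak was 3918 bp wide, with its summit 212 bp into the first exon and a −log10 q of 76.6. Among all protein-coding genes with a promoter peak in the same list, Pcdhgc5 stood at the 89.7th percentile of signal in the replicated list, the 94.5th in pool I and the 58.6th in pool J. A second peak just before the first exon, at chr18:37818604-37819421, had a signal of 4.96. In pool I the main peak ran on without a break for 6618 bp and took in the first gamma constant exon. In the replicated and pool I lists this peak also reaches the promoter window of Gm38182, a non-coding gene, and in pool J it does not.

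Pcdhac2, the last variable exon of the alpha cluster, came next. Its signal was 10.7 in the replicated list, 13.5 in pool I and 7.94 in pool J. The peak at chr18:37141455-37145364 was 3910 bp wide and ran from -2048 to 1861 bp relative to the first exon start, with its summit 267 bp into the exon. This put Pcdhac2 at the 63.9th percentile of marked genes in the replicated list. Pcdhac1, the other C-type gene of the alpha cluster, had no promoter peak in any of the 4 lists.

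Pcdhgc4 and Pcdhgc3 carried weaker peaks. For Pcdhgc4 the signal was 5.06 in the replicated list, 5.89 in pool I and 5.01 in pool J, and the replicated peak at chr18:37814379-37816640 was 2262 bp wide. For Pcdhgc3 the signal was 4.36 in the replicated list, 5.50 in pool I and 3.003 in pool J. Its highest peak, at chr18:37806381-37807229, was 849 bp wide and was flanked by weaker peaks with signals of 4.13 and 2.54. The promoter window of BC037039, an antisense non-coding gene, overlaps that of Pcdhgc3, so the mark there cannot be given to either gene alone. Pcdhgc4 stood at the 18.02nd percentile of marked genes in the replicated list and Pcdhgc3 at the 12.3rd.

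Pcdhga12 was the gamma A gene found in every list, and the one nearest the C-type genes. Its signal was 3.47 in the replicated list, 4.71 in pool I and 2.78 in pool J. The −log10 q was 4.12, 8.62 and 2.20 in the same order. These peaks were weak, at percentiles 5.97, 8.93 and 1.02 of marked genes in those lists. Its peak at chr18:37765988-37766511 lay wholly inside the first exon, from 408 to 931 bp past its start. In pool I the peak also reaches the promoter window of the non-coding gene Gm26672, and in the replicated and pool J lists it does not. The highest replicated peaks of Pcdhac2, Pcdhgc3, Pcdhgc4 and Pcdha5 span the start, while those of Pcdhgc5 and Pcdhga11 also begin past it.

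Pcdha5 and Pcdhga11 also rest on weak peaks. Pcdha5 had a peak of 177 bp at chr18:36960356-36960532, centred on the first exon start, with a signal of 3.17 and a −log10 q of 3.56. Pcdhga11 had a peak of 192 bp at chr18:37755852-37756043, with a signal of 2.57 and a −log10 q of 1.57, which also lies in the promoter of the non-coding gene Gm26672. Neither overlapped a peak in the list of either pool or in the pseudoreplicated list of both pools. Such a highest promoter peak was rare among marked genes: 126 of 12719 (0.991%) had one. Without these genes the counts are those of the pool lists, 5 of 57.

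**Figure D3:**
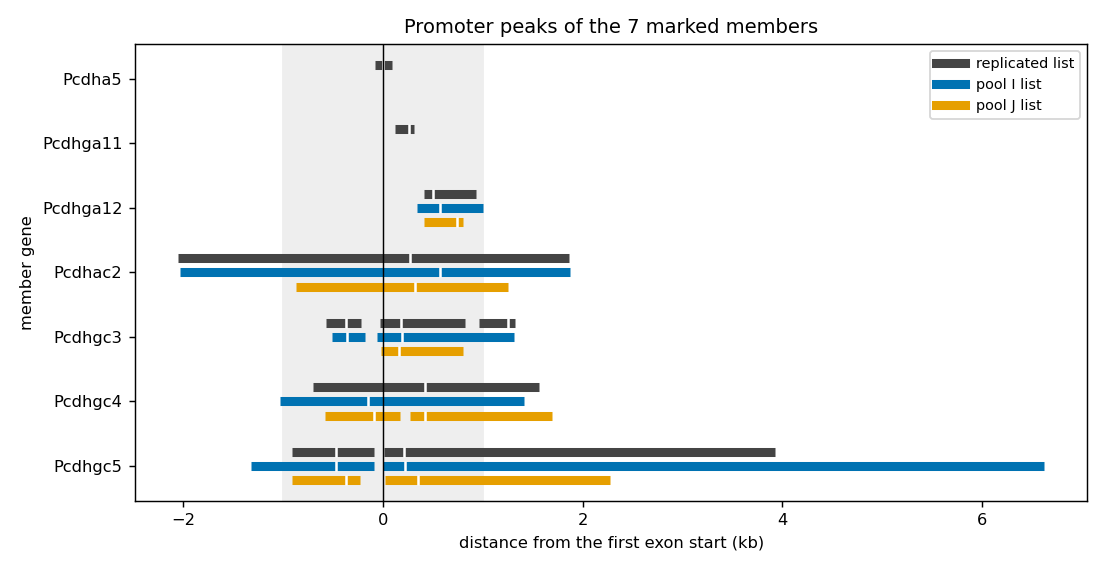
Extent of every promoter peak of the 7 marked members (horizontal axis, distance from the first exon start in kb), in the replicated, pool I and pool J lists, with each summit as a white tick and the 1000 bp window shaded. Peaks of Pcdhac2 and Pcdhgc5 run beyond the window, that of Pcdhga12 lies inside the exon, and Pcdha5 and Pcdhga11 have narrow peaks in the replicated list.

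In width and height the marked members covered a broad range. The median over the 12719 marked protein-coding genes was a signal of 8.86, a width of 1138 bp and a summit 174 bp past the start in the replicated list. Pcdhgc5 and Pcdhac2 were above the median signal and the other 5 marked members below it. The members' median was 4.36 for signal, the 12.3rd percentile of marked genes, and 849 bp for width; for the 4 marked C-type genes it was 7.87, the 41.0th percentile and 3086 bp. These medians over few genes depend on the list. In pool I, over 5 marked members, the median width was 2447 bp beside 1278 bp over all marked protein-coding genes, in pool J it was 1429 bp beside 971 bp, and in the pseudoreplicated list 2262 bp beside 1136 bp. The members' median percentile was 16.3 in pool I, 19.3 in pool J and 18.2 in the pseudoreplicated list. All 5 members marked in each pool had a higher signal in pool I than in pool J, and so did the median over all marked protein-coding genes, at 10.5 and 7.79. The lists' scaling against each other is not known, so these values are given side by side only.

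The constant exons of the alpha and gamma clusters differed in the calls. Constant exons encode the cytoplasmic part shared by all proteins of a cluster. None of the 3 alpha constant exons overlapped a peak in any list, and the nearest replicated peaks were 6488, 6270 and 4156 bp away. In the gamma cluster, constant exon 1 (chr18:37825021-37825079) lay in a peak with a signal of 10.5 in the replicated list and 8.09 in pool J, and in pool I it lay in the Pcdhgc5 peak of 21.9. That replicated peak, chr18:37823553-37826110, also covers the promoter of the non-coding gene Gm38182. Constant exon 2 overlapped no peak in any list. Constant exon 3, the last exon of every gamma gene, lay in the widest of the 55 replicated peaks of the region, chr18:37839394-37846358, which was 6965 bp wide. Its signal was 8.99 in the replicated list, 13.5 in pool I and 8.57 in pool J. The summit of that peak falls in the intergenic stretch between the gamma cluster and Diaph1, whose product nucleates actin filaments.

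Peaks lay close together from Pcdhgc3 into Diaph1. When replicated peaks less than 10000 bp apart were joined, 16 peaks from chr18:37805839 to 37853645 formed 1 group of 47.8 kb, of which 29611 bp was covered by peaks. By covered length it ranked 106 of 26628 such groups in the replicated list. The overlapping pool I group had 14 peaks with 32360 bp covered and ranked 116 of 26920. That of pool J began further upstream, at chr18:37801005, had 17 peaks with 24430 bp covered and ranked 60 of 21580. The replicated group holds the promoters of Pcdhgc3, Pcdhgc4 and Pcdhgc5, the gamma constant exons and part of a Diaph1 intron. By comparison, the group that holds the Pcdhac2 promoter, from chr18:37141455 to 37149667, had 5105 bp covered in the replicated list and ranked 2537.

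**Figure D4:**
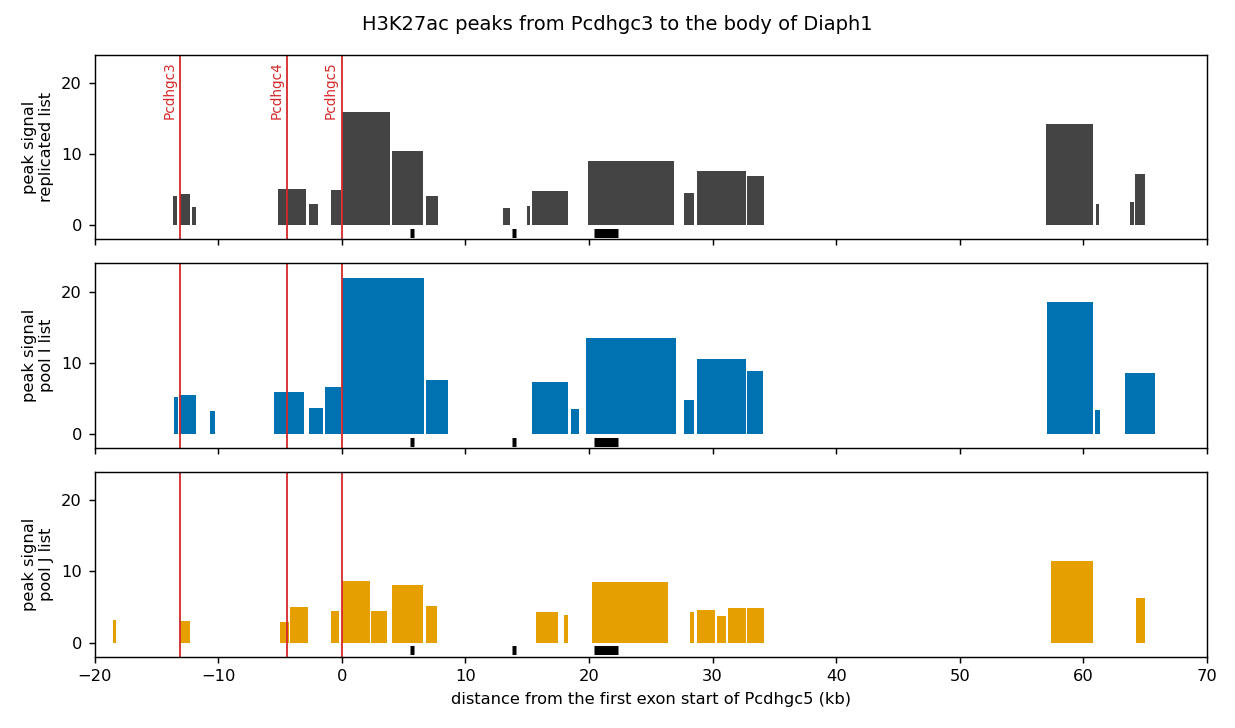
H3K27ac peaks from Pcdhgc3 into the body of Diaph1: height is peak signal and width is peak extent, along the distance from the first exon start of Pcdhgc5 (horizontal axis, kb), for the replicated, pool I and pool J lists. Red lines are the first exon starts of Pcdhgc3, Pcdhgc4 and Pcdhgc5 and black bars the 3 gamma constant exons; the first and last constant exons lie in peaks in each list.

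Outside promoters, the highest peak of the region lay between the alpha and beta clusters, at chr18:37216906-37218300, in introns of the readthrough genes Gm37013, Gm37388 and Gm42416. Its signal was 17.2 in the replicated list, 21.5 in pool I and 12.6 in pool J, which was the 98.7th, 99.0th and 96.6th percentile of all peaks in those lists. Its summit lay at -46819 bp relative to the first exon start of Pcdhb1, the nearest first exon start of a member. The far ends of the alpha genes, up to chr18:37187661, lie closer to it. An enhancer of the alpha genes is known downstream of the alpha constant exons, but its position is not in the sources used here and was not matched to this peak. Inside the alpha cluster, between constant exons 2 and 3, a peak at chr18:37177290-37179116 had a signal of 7.43 in the replicated list, 7.61 in pool I and 5.34 in pool J. It covers the start of the non-coding gene Gm10544. Of the 5 alpha-cluster peaks away from every promoter, the highest was 4.47 in the replicated list.

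Beyond the gamma cluster, a peak in a Diaph1 intron at chr18:37876513-37880315 had a signal of 14.3 in the replicated list, 18.6 in pool I and 11.4 in pool J. Within Diaph1 introns, chr18:37848239-37852199 had 7.62, chr18:37852302-37853645 had 6.92 and chr18:37883688-37884509 had 7.15 in the replicated list. An intergenic peak on that side, chr18:38013488-38016801, had 9.46. Before the alpha cluster, the intergenic peak chr18:36800896-36801723 had 9.85. These, the peak between the alpha and beta clusters and the one at gamma constant exon 3 were the 8 peaks outside promoters above the 75th percentile of signal in the list. Which genes they act on was not measured.

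**Figure D5:**
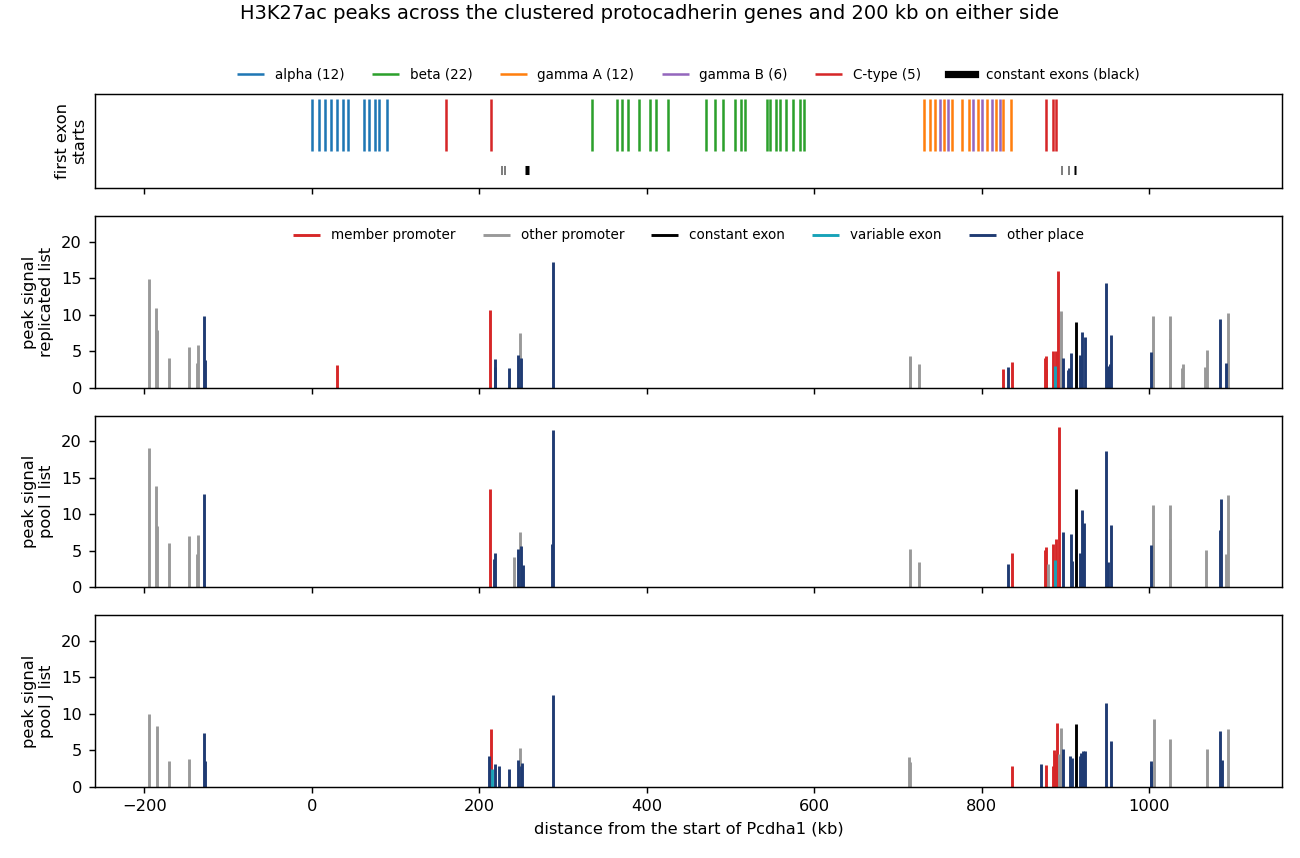
Peak signal (vertical axes) along the protocadherin region and 200 kb on either side (horizontal axis, distance from the start of Pcdha1 in kb), in the replicated, pool I and pool J lists, coloured by where each peak lies. The top strip shows the first exon starts by subfamily and the constant exons; no peak falls in the beta cluster in any of these lists.

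The beta cluster was the longest stretch of the region without a peak. From chr18:37218301 to 37643692, 425 kb, the replicated list held none, and the same stretch was free of peaks in the other 3 lists to within less than 1 kb. It contains the first exon starts of all 22 beta genes and of Slc25a2, a mitochondrial carrier gene, 23 coding genes in all. Of the 72007 gaps between replicated peaks, 888 were at least as long and 40 held at least as many coding genes. In the alpha cluster, Pcdha1 to Pcdha4 lay in a gap of 158 kb and the 8 members from Pcdha6 to Pcdhac1 in one of 181 kb, with the narrow Pcdha5 peak between them. In the pool lists, which lack that peak, these formed 1 gap of 340 kb with 13 members. In the gamma cluster, 17 members lay in a gap of 99.98 kb in the replicated list and 106 kb in pool I, and 18 in one of 121 kb in pool J. A gap counts members by the place of their first exon start, so it can hold a marked gene whose peak begins past the start: Pcdhga11 is among the 17 in the replicated list, and Pcdhga12 among the 18 in pool J.

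In the replicated list, peaks covered 3.80% of the alpha cluster, 0% of the beta cluster and 11.02% of the gamma cluster, beside 2.38% of the genome. The gap between the beta and gamma clusters held 3 peaks, among them those of Taf7, a subunit of a general transcription factor whose single-exon gene lies there, with a signal of 4.34. Pcdhgb8, the gamma B pseudogene, had a peak of 181 bp in the replicated list with a signal of 2.77 and one of 3.14 in pool I, and none in pool J. Within the whole interval of 55 replicated peaks, 35 (63.6%) overlapped a peak in each pool and 8 (14.5%) in neither, beside 56.0% and 13.9% of all replicated peaks.

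Other cadherin families and genes known to act with the protocadherins were counted in the same way. Among the coding genes whose starts lie in the 200 kb on either side of the clusters, 12 of 13 were marked in the replicated list, all but Dnd1. This stood beside 58.5% of all protein-coding genes. In pool I 11 were marked and in pool J 10. Ndufa2 and Ik share their highest peak, as do Hars and Hars2, and Hdac3 and Rell2. Of the 5 other coding genes inside the interval, Taf7 was marked and Gm42416, Gm37013, Gm37388 and Slc25a2 were not. Non-clustered protocadherins, which are single genes with their own promoters, were marked in 10 of 12 cases in each of the replicated and pool lists. Pcdh1 had a signal of 16.4, Pcdh10 of 10.1 and Pcdh7 of 8.17 in the replicated list, and Pcdh12 and Pcdh15 had no promoter peak. Of the large atypical cadherins, which include planar cell polarity genes, 5 of 9 were marked (55.6%), near the 58.5% of all protein-coding genes. The highest were Fat3 at 12.9, Celsr2 at 9.26 and Celsr3 at 6.26. Celsr1, Dchs2 and Fat2 were unmarked in every list, while Dchs1, unmarked in the replicated and pool J lists, had a signal of 3.48 in pool I and 2.67 in the pseudoreplicated list, which makes 6 of 9 in those lists. Both are lists of few genes, and no difference between them and the members was tested.

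The genes known to act on protocadherin promoters were marked in 21 of 22 cases in the replicated list. Trim28, a corepressor, had 19.4, Mau2, part of the cohesin loader, 19.2 and Ctcf, which encodes the factor CTCF, 18.04. The gene without a peak was Dnmt3b, a DNA methyltransferase. In each pool list 20 of the 22 were marked, since Rest also lacked a peak in pool I and Setdb1 in pool J. Of the genes for partners and processing enzymes of the proteins, 15 of 16 were marked in the replicated list and in each pool list. In the replicated list Wasf1 had 24.9, Abi2 18.4 and Abi1 17.04, all parts of the WAVE complex that drives actin branching. Ret, a receptor tyrosine kinase, was not marked. The background for these counts is again 58.5% of all protein-coding genes in the replicated list, 58.2% in pool I and 55.2% in pool J.

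The promoters' own sequence was described over the 250 bases before to 50 after each first exon start. The median GC content was 39.7% over the members, 54.7% over the C-type genes and 55.7% over all protein-coding genes. The ratio of observed to expected CpG dinucleotides had a median of 0.521 over the members, 0.557 over all protein-coding genes and 0.757 over those with a promoter peak. Within the family, marked members had both high and low ratios. Pcdhgc5, with the highest signal, had a ratio of 0.270, and Pcdhga12 had no CpG at all in this window. Pcdhgc3 had 0.875 and Pcdhac2 0.595, while the unmarked Pcdhac1 had 0.623 and the unmarked Pcdha6 had 0.950. The window does not always cover the marked sequence. It ends before the replicated Pcdhga12 peak, which begins 408 bp past the start. The main replicated Pcdhgc5 peak begins 7 bp past the start. Among the other protein-coding genes with a ratio between 0.397 and 0.711, which spans the members from their 25th to their 75th percentile, 3648 of 5144 (70.9%) had a promoter peak. These genes were chosen by that ratio alone and were not matched to the members in GC content or number of CpGs. The median GC content was 60.7% over protein-coding genes with a promoter peak. The part of sequence content in the counts was not tested.

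A conserved element with the core letters CGCT is known upstream of most variable exons. On either strand, CGCT occurred in 55 of 57 member windows (96.5%), all but those of Pcdhb22 and Pcdhga12, beside 68.6% of all protein-coding promoters and 87.4% of the marked ones. A match to such a short word does not by itself show a site of a factor. TATAAA, on either strand, occurred in 10 of 57 (17.5%) and in 0 of the 7 marked members, beside 12.5% of all protein-coding promoters and 6.64% of the marked ones. An exact match to the CTCF consensus was in 0 of 57 windows and in 0.326% of all protein-coding promoters, too rare a word to describe the members by.

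Because the variable exons resemble each other, short reads from them can match more than 1 place. The share of the 32-base words within 1000 bp of a first exon start that occur elsewhere in the genome was therefore counted. Its median was 11.4% for alpha, 0.406% for beta, 2.31% for gamma A, 10.7% for gamma B and 0% for C-type genes, and its highest value was 26.3%, for Pcdha7. Among others, the unmarked Pcdhac1, Pcdhb1, Pcdhb2, Pcdhb3 and Pcdhgb1 had 0%, so their windows hold no repeated word of that length. The C-type genes, which carry most of the marks, thus also have the fewest repeated words, and the part of this in the counts was not tested. Reads from the CAST/EiJ copy were not measured apart from those of the C57BL/6J copy, and their part was not tested either.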

How the data were processed

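H3K27ac ChIP-seq of the 4 samples was used as the 4 peak lists the authors deposited on mm10. Per the file descriptions, 2 lists came from the alignments of both pools and 1 from each pool alone. In each deposited list the signal is the peak caller's own value, the −log10 q compares a peak with its background, and the score column was not used. The aligner, the caller and their versions were not given in the sources used here. Signals were used to describe and rank peaks within a list.

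Peaks on the 19 autosomes and X were assigned to genes with Python 3.11.15 and GENCODE vM21, by an overlap of at least 1 bp with a window of 1000 bp around each annotated start, on both sides; the assignment was tested on simulated data. Coordinates are 1-based. Sequence features came from the genome of the same assembly; no sequence is printed.

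The members and lists were chosen with earlier results of these data known. Named were all C-type genes, the 3 highest genes per subfamily, every unmarked member, top-quarter peaks outside promoters, and, per comparison list, the 3 highest genes and the first 2 unmarked in alphabetical order. Alternatives were other lists, windows, thresholds, overlap rules and flanks. No test was made, since there is 1 group and genes are not replicates. The result of 1 cell type marker list is not reported here.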

Additional observations from a re-analysis of the deposited data

How the results depend on the processing

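The share of members with a promoter peak was 12.3% as reported. It was 8.77% in the list of either pool alone, in the pseudoreplicated list and among replicated peaks found in each pool (an alternative chosen after seeing the data), and 7.02% with a −log10 q of at least 5; other windows, summit overlap and the gene's 5′ end alone left it at 12.3%. The median percentile of the marked members, 12.3 as reported, ranged from 16.3 to 19.3 when one pool was left out, was 18.2 in the pseudoreplicated list and 37.1 with a −log10 q of at least 5, and was 12.6 among replicated peaks found in each pool. The median width, 849 bp, ranged from 1429 to 2447 bp when a pool was left out (1429 without pool I, 2447 without pool J), and was 2262 bp in the pseudoreplicated list and among peaks found in each pool, and 3086 bp with a −log10 q of at least 5. These alternatives are over 5 or 4 genes in place of 7, since Pcdha5 and Pcdhga11 are not marked in them. With a −log10 q of at least 5 Pcdhga12 is not marked either, which leaves 4 C-type genes alone. The cause of the moves was not tested. The count of 25 peaks outside promoters includes the peak at Pcdhgb8, since promoters of pseudogenes were not counted as promoters. The count ranged from 23 to 27 when a pool was left out and was 32 in the pseudoreplicated list. It was 16 with a −log10 q of at least 5 and 15 among peaks found in each pool. With a promoter window of 2500 bp it was 18, and with flanks of 100 kb it was 21. No paired analysis was possible because there is 1 group and the lists hold no values per library. Depth limits every missing peak, and is unknown.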
